A study of Mus musculus with 6 samples.

Results

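The vacuolar proton pump (V-ATPase) was followed through 9 listed genes, 7 encoding its subunits and 2 its accessory proteins, in macrophages sorted from the injured DRG of WT and miR-21 cKO mice. The platform annotation assigned 21 probe sets, each a group of probes read together, to 8 of the 9 genes, out of 45037 probe sets tested in all. Atp6v0c, the proteolipid subunit c of the membrane ring, had no probe set named in that annotation and was not analysed here. The genes were chosen by the signals of these same arrays in the genotype contrast, and Atp6ap2 and Atp6v1e1 were among the probe sets with the smallest adjusted p of the genotype contrast. The values of the 8 genes are therefore given as a description, with no test.

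The pump uses ATP to move protons into endosomes, lysosomes and phagosomes. Its cytosolic V1 sector hydrolyses ATP and turns a central stalk, which drives a ring of proton carriers in the membrane-bound V0 sector. In macrophages the acid it makes activates lysosomal proteases for the digestion of engulfed material and for antigen processing.

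Both groups were male littermates of 8 to 10 weeks that had undergone spared nerve injury (SNI), in which some branches of the sciatic nerve are cut and others are left intact. The miR-21 cKO mice carried a conditional miR-21 allele, passed through an FLP deleter line and then combined with Avil-Cre, which drives recombination from the advillin promoter in sensory neurons. By that design the deletion lies in neurons and not in the sorted macrophages. On day 7 after SNI, F4/80+ CD11b+ cells were sorted from pooled ipsilateral L4/L5 DRG, and 3 pools of WT and 3 of miR-21 cKO cells, collected independently, were each read on 1 Affymetrix Mouse 430V2 array. The methods do not state the number of mice per pool for this sort. The RNA whose loss defines the miR-21 cKO group is shown with bases 2 to 8, its seed, in capitals, as RefSeq gives it on GRCm38.p6 at chr11:86584120-86584141 (- strand).
mmu-miR-21a-5p: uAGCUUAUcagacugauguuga

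The authors had brought the MAS5 signals, which are linear brightness values, of each array to a common trimmed mean of 500. Median signals over all tested probe sets were 271 to 309.5 on the 6 arrays, and the number of arrays limits the precision. The files hold no detection calls. The 95th percentile of 47 olfactory receptor probe sets, a signal of 1037, served as background here, and 2231 of all tested probe sets (4.95%) had a mean log2 signal above it. The F4/80 gene Adgre1, a defining marker of the sorted cells, read 1979 to 2559 on the WT arrays. On the miR-21 cKO arrays it read 2095 on array 1, 96.9 on array 2 and 2821 on array 3. Adgre1 was thus far lower on miR-21 cKO array 2 than on the other 5 arrays. Itgam (CD11b), the other sorting marker, read 45.7 to 985 in WT against 983 to 1296 in miR-21 cKO. It lay under the background on all WT arrays and on miR-21 cKO arrays 1 and 2. In bulk samples such as these, fewer cells of a type and less RNA per cell cannot be told apart.

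Of the 21 pump probe sets, 5 (23.8%) had a mean above the olfactory receptor background, against 4.95% of all tested probe sets. Of the 21, 9 were under it on all 6 arrays, and 0 were above it on all 6. The 5 with a mean above it read Atp6ap2 (2 probe sets), Atp6v1e1, Atp6ap1 and Atp6v1h. Of these, the Atp6ap2 probe sets were above the background on 0 and 1 WT arrays, and the Atp6v1e1 probe set on 1. Each was above it on 3 miR-21 cKO arrays, and its mean log2 signal in WT was under it. On the log2 scale the median level of the pump probe sets was 8.0, against 8.04 over all probe sets. The median percentile of the pump probe sets among all probe sets of an array was 49.7, 51.9 and 74.3 in WT against 60.0, 59.1 and 65.2 in miR-21 cKO. By this median percentile the pump probe sets were highest on WT array 3, and the genotypes overlapped. The summed signal of the brightest probe sets of the 8 genes gave another order, 4625, 5615 and 13521 in WT against 26887, 80835 and 15276 in miR-21 cKO, without overlap. Atp6ap2 and Atp6v1e1 set that order, since the sum of the other 6 genes was 3652, 4905 and 6429 in WT against 3991, 5901 and 8375 in miR-21 cKO, with overlap.

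**Figure D1:**
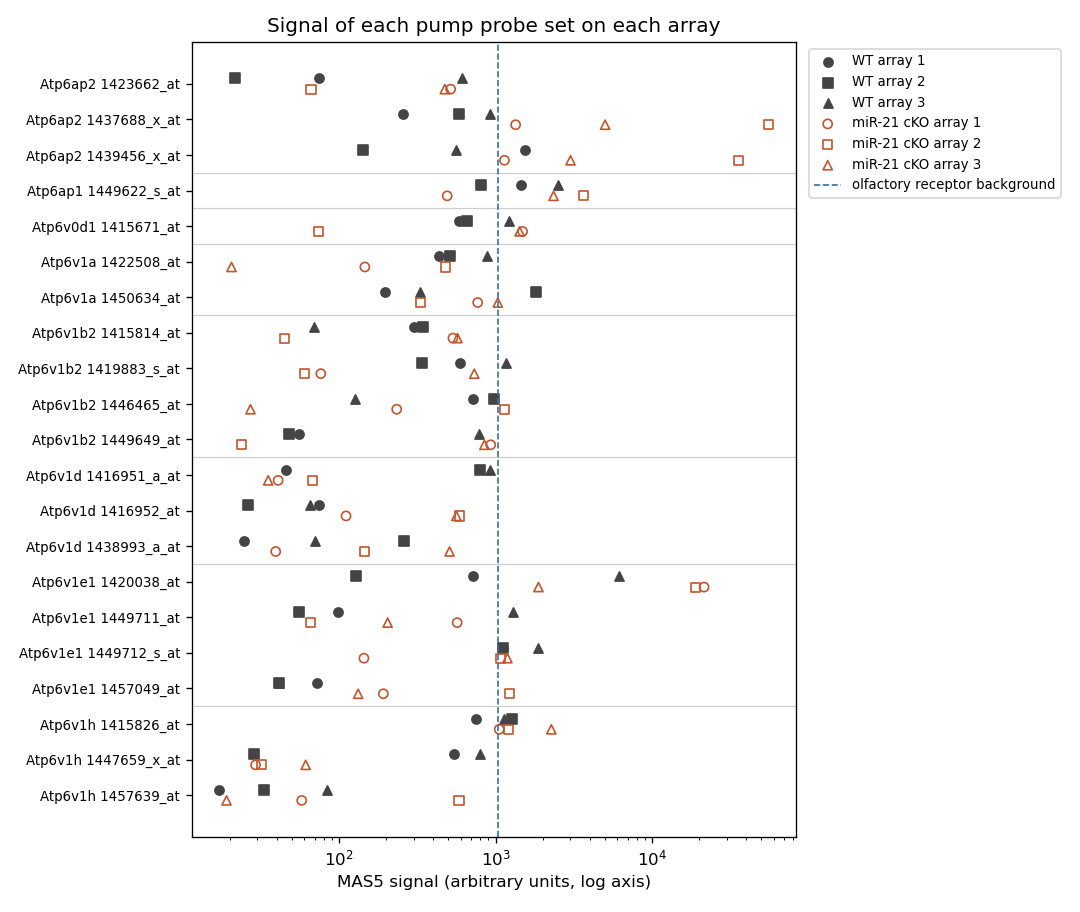
MAS5 signal (horizontal log axis, arbitrary units) of the 21 probe sets of 8 pump genes on each array. Filled symbols are WT arrays, open symbols are miR-21 cKO arrays, symbol shape gives the array number, and the dashed line is the olfactory receptor background of 1037. Most points lie left of the line, and the highest signals belong to Atp6ap2 on miR-21 cKO array 2 (55913 and 35909) and to Atp6v1e1 on miR-21 cKO arrays 1 and 2 (21553 and 19021).

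The accessory protein Atp6ap2, also called the prorenin receptor, is a membrane protein needed for assembly of the V0 sector. Its brightest probe set, 1437688_x_at, read 255, 581 and 927 in WT against 1344, 55913 and 5019 in miR-21 cKO, with arrays 1 to 3 of each genotype given in order here and after. All 3 miR-21 cKO arrays were above all WT arrays, and array 2 was far above the other 2 of its genotype. The log2 difference, miR-21 cKO minus WT, was 3.81 (standard error 0.79), and it ranged from 2.33, when miR-21 cKO array 2 was left out, to 5.02, when miR-21 cKO array 1 was. The probe set 1439456_x_at read 1534, 141 and 561 in WT against 1140.4, 35909 and 3017 in miR-21 cKO. It had the same order of miR-21 cKO arrays, but WT array 1 lay above miR-21 cKO array 1, so the genotypes overlapped. Its log2 difference was 3.33 (standard error 0.85), and 1.91 without miR-21 cKO array 2. The third probe set, 1423662_at, read 74.8, 21.5 and 613 in WT against 516, 66.0 and 474 in miR-21 cKO. It was under the background on every array, and miR-21 cKO array 2, the highest for the other 2 probe sets, was here the lowest of its genotype. Its log2 difference was 1.34 (standard error 1.49).

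Markers on miR-21 cKO array 2, where both bright Atp6ap2 probe sets peaked, went both ways. Of 15 macrophage markers measured, 4 (Adgre1, Csf1r, Mertk and Tyrobp) had their lowest signal of the 6 arrays there and 1 (Aif1) its highest, and their summed signal was 12123 to 19321 in WT against 7708 to 32924 in miR-21 cKO. Of 19 sensory neuron markers, 3 (Nefl, Trpv1 and P2rx3) had their highest signal there and 4 (Nefm, Scn9a, Sprr1a and Tubb3) their lowest. Nefl, a neurofilament, read 13563 there against 78.9 to 4107 on the other 5 arrays, and Nefm, another neurofilament, read 42.4 against 105 to 955. Of 10 glial markers, 4 had their highest signal there and 1 its lowest. Over all probe sets, 18.0% had their highest signal on that array. The poly-A control dap, RNA added before labelling, read 98638 on that array and 243483 to 646156 on the others. At an unadjusted p below 0.05 and a change of 2-fold or more, limma called 2 of the 19 higher in miR-21 cKO (Nefl and Gal) and 0 lower, where 2.09% of all genes were called higher and 2.28% lower. The summed signal of the 19 was 13359 to 23147 on WT and 16863 to 25641 on miR-21 cKO arrays. The part of any of these in the Atp6ap2 signals was not tested.

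Atp6ap1, the other accessory protein, helps the pump to assemble and reach its membrane. Its 1 probe set read 1459.9, 809 and 2510.1 in WT against 491, 3639 and 2349 in miR-21 cKO. The lowest and the highest signal both came from miR-21 cKO arrays, so the genotypes overlapped fully. The log2 difference was 0.17 (standard error 0.86), and it lay between -0.42, with miR-21 cKO array 2 left out, and 1.03, with miR-21 cKO array 1 left out.

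In the V0 sector, Atp6v0d1 couples the central stalk to the proteolipid ring. It read 583, 653 and 1218 in WT against 1489, 74.0 and 1425 in miR-21 cKO. Arrays 1 and 3 of miR-21 cKO were above all WT arrays, and array 2 was below all of them. The log2 difference was -0.52 (standard error 1.13), although the mean linear signal was 1.22-fold higher in miR-21 cKO (818 ± 348 for WT against 996 ± 799, SD, n = 3). Without miR-21 cKO array 2 the log2 difference was 0.91, so that the sign rested on this array.

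In the V1 sector, Atp6v1e1 forms part of the peripheral stalk that holds the catalytic head in place. Its brightest probe set, 1420038_at, read 718, 129 and 6165 in WT against 21553, 19021 and 1881 in miR-21 cKO. WT array 3 was above miR-21 cKO array 3, so the genotypes overlapped, and the WT arrays alone spanned 47.9-fold. The log2 difference was 3.47 (standard error 0.70), and it was 2.12 without WT array 2 and 4.92 without WT array 3. Adgre1 read 2095 and Nefl 1602 on miR-21 cKO array 1, and 96.9 and 13563 on array 2, the arrays where this probe set was highest. Other markers went both ways there. Of 19 sensory neuron markers, 4 had their highest and 3 their lowest signal on array 1, and 3 and 4 on array 2. Of 15 macrophage markers, 1 had its highest and 1 its lowest signal on array 1, and 1 and 4 on array 2. The part of these markers in its signals was not tested. Its other 3 probe sets did not share this pattern. The probe set 1449712_s_at, above the background on 5 arrays, read 1114, 1109 and 1877 in WT against 144, 1071 and 1191 in miR-21 cKO, a log2 difference of -1.22 (standard error 1.03). The probe set 1449711_at had a log2 difference of 0.04 (standard error 1.51). The probe set 1457049_at read 72.2, 41.4 and 41.2 in WT against 192, 1225 and 132 in miR-21 cKO without overlap, with a log2 difference of 2.66 (standard error 1.42), but it was above the background on 1 array.

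Promoters of 7 of the 9 listed genes were matched by symbol in the RefSeq table of GRCm38.p6. Those of Atp6ap2 and Atp6v1e1 are shown because these genes had the greatest differences, and those of Atp6v0d1 and Atp6v1a because they hold CACGTG, the core letters of the E-box that lysosomal transcription factors such as TFEB can bind. Each window runs from 250 bases before the start to 20 bases after it, 5′ to 3′ on the strand of the gene, with CACGTG in capitals. This motif reads the same on both strands and was the only motif searched for.
Atp6ap2, chrX:12587509-12587778 (+ strand): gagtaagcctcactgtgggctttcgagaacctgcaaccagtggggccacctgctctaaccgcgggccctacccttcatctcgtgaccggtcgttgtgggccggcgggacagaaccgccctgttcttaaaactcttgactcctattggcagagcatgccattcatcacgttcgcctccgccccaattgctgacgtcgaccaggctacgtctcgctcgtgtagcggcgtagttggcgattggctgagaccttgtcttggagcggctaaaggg
Atp6v1e1, chr6:120822679-120822948 (- strand): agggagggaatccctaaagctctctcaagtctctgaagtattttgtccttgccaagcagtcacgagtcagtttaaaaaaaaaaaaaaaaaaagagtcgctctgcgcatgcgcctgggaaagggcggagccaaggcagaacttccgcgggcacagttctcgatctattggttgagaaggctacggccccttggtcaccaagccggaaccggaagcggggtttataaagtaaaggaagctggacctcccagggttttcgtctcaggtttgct
Atp6v0d1, chr8:105566045-105566314 (- strand): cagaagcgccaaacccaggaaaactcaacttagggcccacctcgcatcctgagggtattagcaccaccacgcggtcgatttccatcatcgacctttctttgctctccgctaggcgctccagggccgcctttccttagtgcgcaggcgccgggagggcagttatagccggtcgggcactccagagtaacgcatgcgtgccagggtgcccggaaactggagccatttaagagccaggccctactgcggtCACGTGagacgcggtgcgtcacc
Atp6v1a, chr16:44139240-44139509 (- strand): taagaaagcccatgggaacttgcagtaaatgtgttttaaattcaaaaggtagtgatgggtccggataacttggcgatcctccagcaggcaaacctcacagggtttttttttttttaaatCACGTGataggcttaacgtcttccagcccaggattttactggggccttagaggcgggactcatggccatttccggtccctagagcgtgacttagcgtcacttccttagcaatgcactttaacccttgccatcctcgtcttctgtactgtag

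The motif was in a window of 2 of the 7 genes (28.6%) and of 7.45% of all 27025 genes. Counted by windows of this length, it was in 2 of 9 (22.2%) and in 6.57% of all 32851. In Atp6v0d1 it spans the annotated start and in Atp6v1a it begins at base -131. A match is a description of these letters, not of a bound site.

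Atp6v1a is the catalytic A subunit, which hydrolyses ATP. The brighter of its 2 probe sets, 1450634_at, read 196, 1802 and 328 in WT against 769, 330.0 and 1034 in miR-21 cKO, with the genotypes overlapping and a log2 difference of 0.39 (standard error 1.18). The other, 1422508_at, read 438, 512 and 884 in WT against 146, 481 and 20.5 in miR-21 cKO. There 2 of the 3 miR-21 cKO arrays were below all WT arrays, and the log2 difference was -2.37 (standard error 1.46). The platform annotation gives the same source sequence for both probe sets.

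Atp6v1b2 is the B subunit of most cells, which sits beside A in the head and binds ATP without hydrolysing it. Its 4 probe sets gave log2 differences of 0.31, -2.05, -1.20 and 1.05 (standard errors 1.50, 1.40, 1.42 and 1.51). The brightest, 1419883_s_at, read 592, 339 and 1174 in WT against 76.3, 59.7 and 731 in miR-21 cKO. It was lower on miR-21 cKO arrays 1 and 2 than on any WT array, while array 3 lay within the WT range. The log2 difference of the mean of all 4 probe sets was -0.47.

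Atp6v1d is the central stalk subunit that rotates inside the head. Its probe sets 1416951_a_at and 1416952_at come from 1 source sequence. The first read 45.6, 790 and 927 in WT against 40.7, 67.6 and 35.2 in miR-21 cKO, a log2 difference of -2.81 (standard error 1.41). The second read 74.6, 26.1 and 65.3 in WT against 111, 585 and 562 in miR-21 cKO, a log2 difference of 2.72 (standard error 1.43) without overlap. The 2 probe sets thus differed in opposite directions by nearly the same amount, and both were under the background on all arrays. The probe set 1438993_a_at had a log2 difference of 0.90 (standard error 1.33).

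Atp6v1h is the regulatory subunit that lets the attached pump work and keeps free V1 from consuming ATP. Its brightest probe set, 1415826_at, read 747, 1276 and 1133 in WT against 1055, 1213 and 2274 in miR-21 cKO. It was the steadiest pump probe set, with a residual SD of 0.51 (log2) against a median of 1.77 over the 21, and its log2 difference was 0.48 (standard error 0.93). Leaving out 1 array kept this value between 0.14 and 0.70. The dim probe set 1447659_x_at read 541, 28.4 and 801 in WT against 29.2, 31.9 and 61.1 in miR-21 cKO, a log2 difference of -2.58 (standard error 1.28). WT array 2 was as low as the miR-21 cKO arrays. The probe set 1457639_at, also under the background on every array, had a log2 difference of 1.26 (standard error 0.94).

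**Figure D2:**
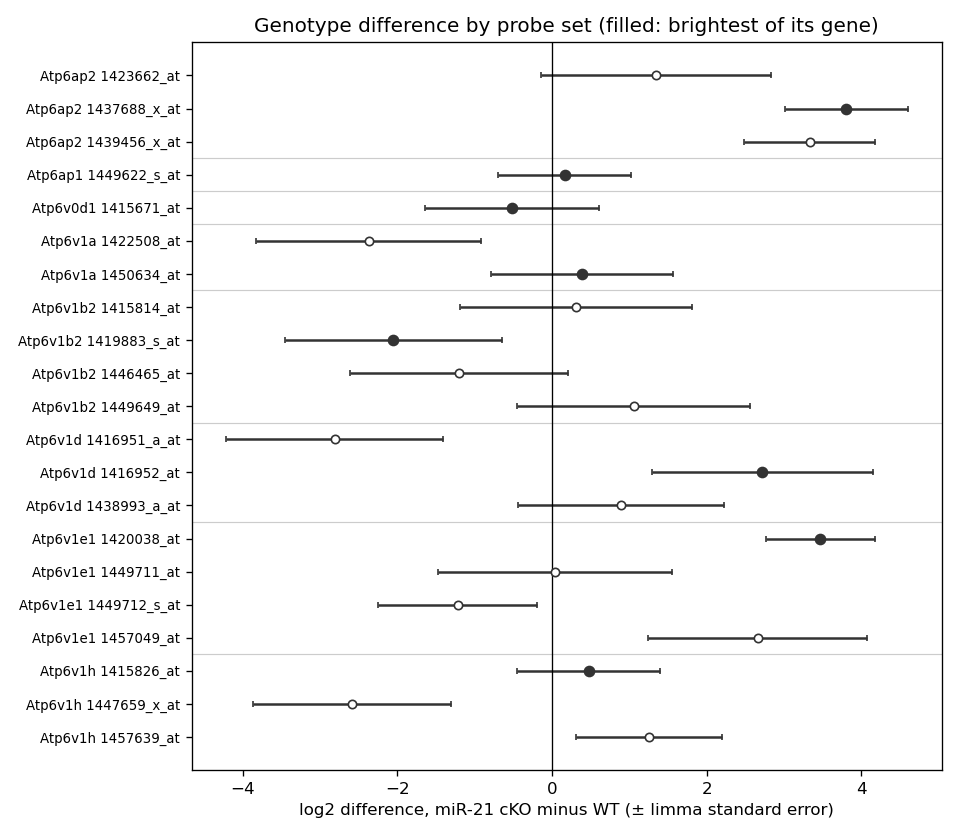
Log2 difference, miR-21 cKO minus WT, of each pump probe set, with the standard error of limma as the bar (3 arrays per genotype). Filled points mark the brightest probe set of a gene. The values run from -2.81 to 3.81, and within Atp6v1a, Atp6v1b2, Atp6v1d, Atp6v1e1 and Atp6v1h the points lie on both sides of 0.

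Agreement among probe sets of a gene was weak. Of the 6 pump genes with more than 1 probe set, 1 (Atp6ap2) had all of them on the same side of 0. Of the 22 pairs of probe sets of 1 pump gene, 10 (45.5%) had the same sign, against 50.6% of 30372 such pairs over all genes. Of the 5 pairs made from the same source sequence, in Atp6v1a, Atp6v1d and Atp6v1e1, 1 had the same sign, and over all genes 50.2% of 5219 such pairs did. Spread among arrays of a genotype was wide as well. The highest pump signal was a median of 5.0 times the lowest among WT arrays and 11.5 times among miR-21 cKO arrays, where all probe sets had medians of 5.85 and 6.65.

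Among subunits, 6 of 8 genes had a higher mean log2 signal in miR-21 cKO by their brightest probe set, and Atp6v0d1 and Atp6v1b2 had a lower one. With the probe sets of each gene averaged, 4 of 8 were higher and 4 lower. Averaging turned Atp6v1a to -0.99 and Atp6v1h to -0.28 on the log2 scale, and brought Atp6v1d from 2.72 to 0.27, Atp6v1e1 from 3.47 to 1.24 and Atp6ap2 from 3.81 to 2.83. Over all 21 probe sets 14 had a higher mean log2 signal, and the median log2 difference was 0.39 against -0.03 over all probe sets. It was between 0.05 and 0.87 with 1 array left out. With both thresholds of the methods (unadjusted p below 0.05, change of 2-fold or more), limma called 3 of the 21 higher (2 of Atp6ap2 and 1 of Atp6v1e1) and 2 lower (1 of Atp6v1d and 1 of Atp6v1h). Over all probe sets 2.11% were called higher, 2.40% lower and 4.51% in either direction. By the brightest probe set of a gene, Atp6ap2 and Atp6v1e1 were called higher and 0 of the 8 lower, where 2.09% of all genes were called higher, 2.28% lower and 4.37% in either direction. The adjusted p was under 0.05 for 2 of the 21, as for 0.0222% of all probe sets. These were the brightest probe sets of Atp6ap2 and Atp6v1e1, whose standard errors came from the spread of equally bright probe sets and not from their own residual SDs (log2) of 2.04 and 2.42. Atp6ap2 did not pass the adjusted p without miR-21 cKO array 2 (adjusted p = 0.99) or array 3 (adjusted p = 0.22) in limma, nor Atp6v1e1 without WT array 2 (adjusted p = 0.72) or miR-21 cKO array 1 or 2 (adjusted p = 0.99 for each). With the trend of spread on brightness left out, neither passed in limma. In 3 of the 21 the genotypes did not overlap, all higher in miR-21 cKO, where 4.74% of all probe sets were higher and 5.07% lower without overlap. These counts use the contrast with which the genes were listed, and nothing is read from them. The methods' t-test of each probe set, run on the same values, called 1 of the 8 genes by its brightest probe set, Atp6v1d, and neither Atp6ap2 nor Atp6v1e1, with 4.66% of all genes called. Averaging the probe sets of each gene before the limma fit left Atp6ap2 alone called, with 5.3% of all genes called.

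**Figure D3:**
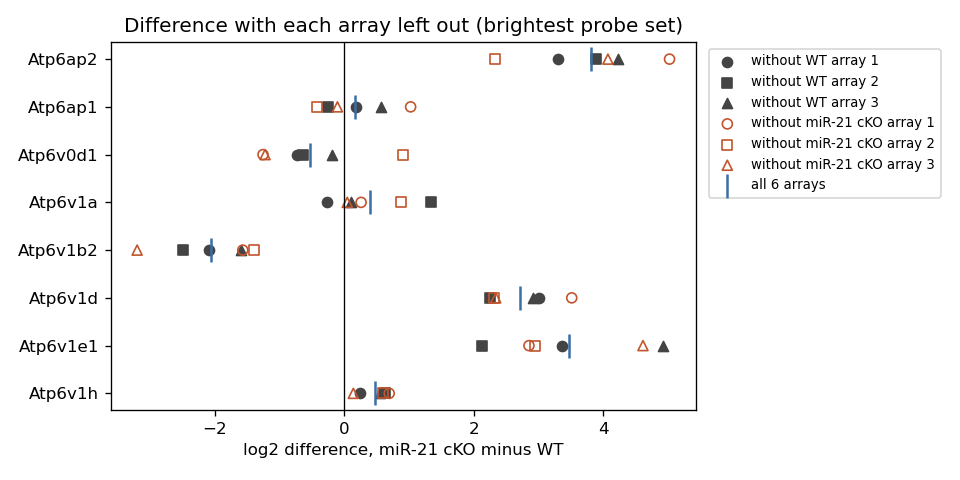
Log2 difference, miR-21 cKO minus WT, of the brightest probe set of each pump gene with all 6 arrays (vertical bar) and with each array left out (symbols as named in the legend). Atp6ap2, Atp6v1d and Atp6v1e1 stay above 0 and Atp6v1b2 stays below 0, while Atp6ap1, Atp6v0d1 and Atp6v1a change sign, with Atp6v0d1 running from -1.25 to 0.91.

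The other pump genes were read from lists of further subunits and of assembly and regulatory factors. Of 16 further subunits measured of 17, limma called 0 higher and 0 lower at the thresholds, where 4.37% of all genes were called in either direction, with a median log2 difference of 0.08. Of 14 assembly and regulatory factors it also called 0 in either direction, with a median of -0.30, against a median of -0.04 over all genes. The methods' t-test called 1 of these 30 genes higher, Atp6v1b1, and 1 lower, Atp6v0a4, where it called 4.66% of all genes in either direction. None passed an adjusted p from either test. The genotypes did not overlap in 2 of the 30 higher in miR-21 cKO (Atp6v1b1 and Tfeb) and 2 lower (Atp6v0a4 and Atp6v1g2). Over all probe sets 4.74% were higher and 5.07% lower without overlap.

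Isoforms of the described subunits were read by their brightest probe sets. Atp6v1b1, the B subunit of kidney and other acid-secreting epithelia, read 1163, 660 and 302 in WT against 1978, 2736 and 1614 in miR-21 cKO. All miR-21 cKO arrays were above all WT arrays (exact permutation test, two-sided p = 0.1, the lowest this design can reach). Its log2 difference of 1.75 (standard error 0.95) had an unadjusted p of 0.065 in limma and 0.045 in the methods' t-test over the same arrays. Its mean over both genotypes was above the background only through miR-21 cKO, where 3 arrays were above it against 1 WT array. Its paralog Atp6v1b2 had a log2 difference of -2.05, and the difference between the paralogs was not tested. Atp6v0d2, the d subunit of osteoclasts and some macrophages, read 467, 1623 and 1195 in WT against 1047, 1351 and 850 in miR-21 cKO, a log2 difference of 0.14 (standard error 0.98). Atp6v1e2, the E subunit of testis, had a log2 difference of 1.12 (standard error 1.50). Atp6v0a4, the kidney form of the a subunit, fell from 737 ± 687 to 86.4 ± 52.4 (SD, n = 3) by the methods' t-test and not by limma, and its signals lay under the background on 5 of the 6 arrays.

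Tcirg1, the a subunit of lysosomes in osteoclasts and macrophages, had a log2 difference of -0.02 (standard error 1.10). Tfeb, the transcription factor named above, read 93.7 to 522 in WT against 558 to 735 in miR-21 cKO, without overlap and under the background on all 6, with a log2 difference of 1.27 (standard error 1.28, unadjusted p = 0.32 in limma). Its relative Tfe3 was among the brightest of these genes, with 6141, 5692 and 2856 in WT against 6980.5, 5681 and 3026 in miR-21 cKO, and had a log2 difference of 0.09 (standard error 0.58).

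The lysosome, which the pump acidifies, was read through 69 genes measured of 76 listed. Limma called 2 higher and 1 lower, 4.35% of the 69 against 4.37% of all genes. Lamp1, the major glycoprotein of the lysosomal membrane, read 136, 242 and 89.7 in WT against 1071, 500 and 2180 in miR-21 cKO. Ctsf, the cysteine protease cathepsin F, read 427, 121 and 130.03 in WT against 1533, 1016 and 1688 in miR-21 cKO. Both rose without overlap, with log2 differences of 2.88 (standard error 1.31) and 2.87 (standard error 1.21). Their signals were under the background on all 3 WT arrays and on miR-21 cKO array 2, and neither had a mean above it. Clcn5, a chloride/proton exchanger that works beside the pump in endosomes, fell from 5751, 4509 and 5123 to 491, 3548 and 697, a log2 difference of -2.26 (standard error 0.75). It kept its call in limma with each array left out, but lost it in limma without the trend and with averaged probe sets. The methods' t-test did not call it. None of the 3 passed an adjusted p from limma. By list, 13 genes of endosome and lysosome ion transport held Clcn5 alone, 42 of lysosomal enzymes and membrane held Lamp1 and Ctsf, and 14 of mTORC1, the growth regulator that docks on lysosomes, held 0. Lamp1 lost its call without WT array 3, miR-21 cKO array 1 or miR-21 cKO array 3. Ctsf lost its call without miR-21 cKO array 3 and with averaged probe sets. Of the 69 genes, 5 were higher and 2 lower in miR-21 cKO without overlap, where 4.74% and 5.07% of all probe sets were.

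**Figure D4:**
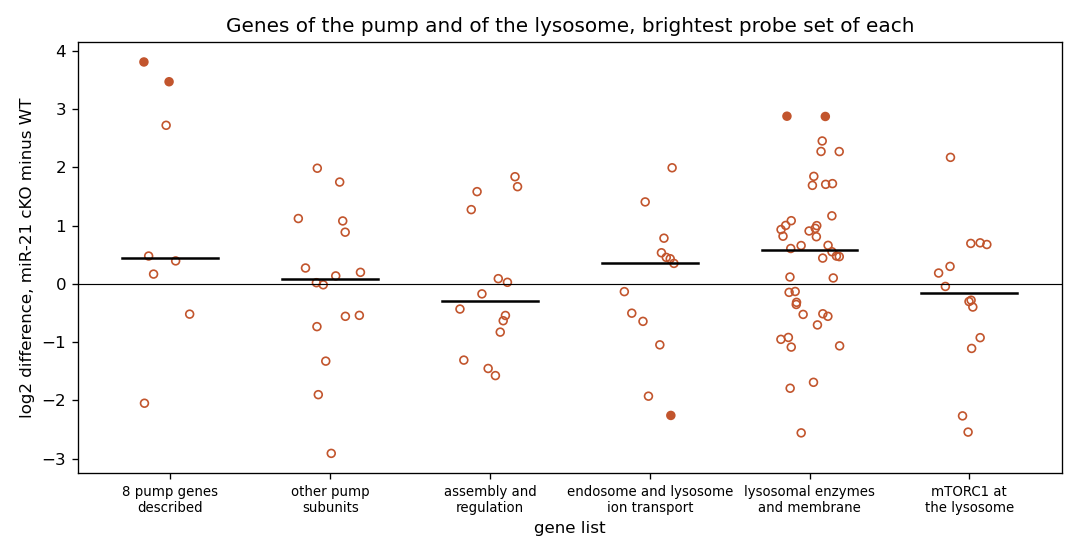
Log2 difference, miR-21 cKO minus WT (vertical axis), of the brightest probe set of each gene in 6 lists, with filled points for genes at the thresholds of limma and black bars for list medians. The 8 described pump genes hold 2 filled points (Atp6ap2 and Atp6v1e1), the further pump subunits and the assembly and regulatory factors none, and the lysosomal lists Lamp1, Ctsf and Clcn5.

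Genes with the pattern most like the brightest probe sets of Atp6ap2 and Atp6v1e1 were taken by the Pearson correlation of log2 signals over the 6 arrays among 1661 genes with a mean above the background. For Atp6ap2 they were Rab3il1 (r = 0.94), Snapin (r = 0.92), Grn (r = 0.89), Dtd1 (r = 0.89) and 4930556N13Rik (r = 0.87). Grn, the precursor of the lysosomal granulins, read 1679, 1995 and 1634 in WT against 2097, 3297 and 3101 in miR-21 cKO, without overlap. For Atp6v1e1 they were Sebox (r = 0.99), Arhgef40 (r = 0.98), the myosin light chain Myl6 (r = 0.95), Camk1g (r = 0.94) and Art1 (r = 0.93). The filter took the mean over both genotypes, so genes could pass through their miR-21 cKO signals. Dtd1 did so, with 911, 522.5 and 779 in WT against 1408, 3408 and 1607 in miR-21 cKO, while Rab3il1 and Grn were above the background on every array. The filter thus shaped which genes could be named. With 6 points that share their arrays, these correlations are a description, and nothing is read from them. No gene was in both sets.

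Markers of other cells were read beside these results. At the thresholds, where limma called 4.37% of all genes in either direction, 2 of 15 macrophage markers were higher (Cd14 and Itgam), 2 of 9 mast cell markers were lower (Tpsab1 and Fcer1a), and of 15 markers of stroma and vessels 1 was higher (Rgs5) and 1 lower (Des). Limma called 0 of 10 glial, 10 lymphocyte, 8 neutrophil and 8 osteoclast markers. Their part in the pump signals was not tested.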

How the data were processed

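Macrophage RNA from 3 WT and 3 miR-21 cKO pools was amplified (WT Pico) and read on Affymetrix Mouse 430V2 arrays. The authors deposited 1 intensity per probe set and array, made with MAS5 in Expression Console on a linear scale. No MAS5 version is stated in the labels or methods. Groups and replicate numbers came from the sample titles. Of 45101 probe sets, 64 controls were left out and none of the other 45037 was filtered. Names came from the platform annotation, updated through Entrez IDs (RefSeq genes of GRCm38.p6) for 34741, which gave 18193 genes. The brightest probe set of a gene is that with the highest mean log2 signal.

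Log2 signals without pseudocount were fitted with limma 3.58.1 in R 4.3.3 (lmFit, eBayes with intensity trend), with Benjamini-Hochberg adjustment over all probe sets. Standard errors follow the fitted trend of spread on brightness. The code was tested on simulated data. The pump genes and the gene lists were chosen with earlier results of these data known. Named genes were all probe sets of the pump genes, called genes of each list, isoforms of the described subunits and the 5 genes most like Atp6ap2 and Atp6v1e1. Atp6v0a4, Tcirg1, Tfeb, Tfe3 and the cell markers given by array were named after their values were seen. Figures were drawn with matplotlib 3.10.9.

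Alternatives were median centring, quantile normalization, a lower limit on signals (their 25th percentile), exclusion of probe sets below the median or the background, eBayes without trend, array weights, the methods' t-test (unpaired, equal variances), the replicate number as a block, each array left out, and averaging the probe sets of each gene.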

Additional observations from a re-analysis of the deposited data

How the results depend on the processing

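Of the 8 pump genes, the 2 called higher became 3 with eBayes without trend, which added Atp6v1d. They became 1 with the methods' t-test (Atp6v1d) and 1 with averaged probe sets of each gene (Atp6ap2), and 2 to 3 with each array left out. For the other pump genes, 0 called higher became 1 with the floor, with either filter, with the methods' t-test and with averaged probe sets (Atp6v1b1 in each), and 0 to 1 with an array left out. Their 0 called lower became 1 with quantile normalization, eBayes without trend, array weights, the methods' t-test and averaged probe sets (Atp6v0a4 in each), and 0 to 1 with an array left out. For lysosome genes, 2 called higher became 3 with the floor (Ctsk added), 0 with the background filter, 4 with the methods' t-test and 0 to 4 with an array left out. The 1 called lower became 0 with the methods' t-test and 2 to 4 with an array left out. Equal counts hid changes of gene. In place of Clcn5, eBayes without trend called Rragd lower and averaged probe sets called Clcn6. Averaged probe sets also called Ctsk higher in place of Ctsf. Over all probe sets, the 950 higher and 1081 lower became 441 and 530 with the filter at the median level and 34 and 49 with the background filter, where fewer probe sets were tested, and lay at 801 to 969 and 797 to 1178 with an array left out. The 10 past an adjusted p became 0 with the floor, the background filter, eBayes without trend and the methods' t-test, and 5 to 17 with an array left out. The median log2 difference of pump probe sets was 3.33 over those left by the background filter, 0.05 to 0.87 with an array left out. That filter takes the mean over both genotypes. The Atp6ap2 and Atp6v1e1 probe sets it left had WT means under the background (log2 9.01, 8.95 and 9.69 against 10.02). They passed through their miR-21 cKO signals, so the filter shaped the 3.33 and nothing is read from it. Atp6v1b1 passed in the same way (WT mean log2 9.26). With averaged probe sets Atp6v1a and Atp6v1h turned to -0.99 and -0.28 (log2), and without miR-21 cKO array 2 Atp6v0d1 turned to 0.91. Other causes were not tested.

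No sign was found that the same replicate numbers mark shared samples. Deviations from the group means correlated at -0.016, -0.018 and -0.033 for arrays 1, 2 and 3, and at -0.003 to 0.020 for arrays of unlike number. With the wide spread among arrays, such values cannot exclude a shared sort or processing day. With the replicate number as a block limma called 901 probe sets higher and 1034 lower, and 2 pump genes higher. Brightness over background limits the pump genes, as do the 3 arrays per genotype. Of the 21 pump probe sets, 9 were under the background on every array, a share that was not counted over all probe sets. A mean above it was found for 23.8% of the pump probe sets and 4.95% of all tested probe sets, so dimness was not particular to the pump.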
